A study of Mus musculus with 6 samples.

Results

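Integrin and laminin subunits were followed in mouse cumulus granulosa cells, the somatic cells that surround the oocyte, in a comparison of control cells with cells given short hairpin RNAs against Atg5. Subunits were chosen by gene symbol and by level, as rows of the authors' deposited table whose symbol names an integrin alpha or beta chain or a laminin alpha, beta or gamma chain and whose base mean exceeds 3.3. Of 24982 rows, 38 had such a symbol and 34 passed the minimum. These were 7 integrins of leukocytes, 17 other integrins and 10 laminins. The lowest level inside the minimum was Lama3, with a base mean of 6.49 normalized counts per the authors' deposited table. Below it lay Itgb6 at 0.45, Lamb3 at 0.37, Itgad at 0.34 and Itgb2l at 0 per the authors' deposited table, and these 4 were not followed further.

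The cells came from Kun-Ming mice, an outbred stock, and the design compares 3 libraries labelled control with 3 libraries labelled Atg5-KD. Labels number the libraries 2, 3 and 4 in each group and give no age of the animals, no separate cultures or donors, and nothing on what the control cells received, so the p-values may measure technical spread only. What was used is a single table of the comparison, with a base mean over the libraries (read counts divided by size factors), a log2 fold change with its standard error, and a Wald test with p-values adjusted over 14835 tested genes. Since it pools the libraries, group means given here are estimates from the base mean and the fold change and carry no spread between libraries. A call needed an adjusted p under 0.05, with no limit on the fold.

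Atg5 itself stood at a log2 fold change of -0.06 ± 0.14 (SE) per the authors' deposited table (Wald adjusted p = 0.822). It was estimated at 414 normalized counts in control libraries and 397 in those labelled Atg5-KD, so a fall of the target transcript was not seen. Which group is the numerator was taken from the table's name, which puts KO before control. KO was read as the libraries labelled Atg5-KD, and Atg5 gives no check of that order. Were the order the reverse, every fall given here would be a rise, and the estimated levels and shares of both groups would change places. Granulosa genes were abundant, with base means per the authors' deposited table of 37682 for the gap junction gene Gja1, 30063 for Inha and 1816 for the transcription factor Foxl2. The aromatase gene Cyp19a1 lay under the level minimum and Amh had a base mean of 6.07 per the authors' deposited table. Abundant as they were, Foxl2 was called lower at -0.49 (Wald adjusted p = 1.65e-05) and Gja1 at -0.33 (Wald adjusted p = 0.00343). Inha did not pass the test at -0.14 per the authors' deposited table. Gja1, Inha, Foxl2, Cyp19a1 and Amh were named after their values were seen.

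Integrins are pairs of an alpha and a beta chain that span the membrane, bind matrix proteins or other cells outside and recruit talin and kindlin to the beta tail inside. The alpha chain largely sets the ligand, and the beta1 chain pairs with most alpha chains, while the beta2 and beta7 chains belong to leukocytes. Laminins are trimers of an alpha, a beta and a gamma chain that polymerise into basement membranes. In the ovary they are part of the follicular basal lamina, which separates granulosa cells from theca.

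Of the 34 subunits, 12 were lower in libraries labelled Atg5-KD than in control and 0 were higher per the authors' deposited table (Wald test, Benjamini-Hochberg adjusted). At an unadjusted Wald p under 0.05 the counts per the authors' deposited table were 14 lower and 1 higher. Among all 14835 tested genes 10.5% were called lower and 10.4% higher, against 35.3% and 0% of the subunits. Calls depend on level, so the same was read within levels. For subunits with a base mean of at least 1000, 5 of 12 were lower and 0 higher, where the shares of all such genes were 16.8% and 18.4%. Under a base mean of 50, 4 of 14 were lower and 0 higher, where the shares of all such genes were 3.56% and 5.0%. Itgax, among these 4 and also counted in the 12, passed the level minimum only through its control libraries. The median log2 fold change of the 34 was -0.21 per the authors' deposited table, beside 0.0042 over all tested genes, and 26 of the 34 values were below 0. In bulk RNA, fewer cells of a type and less RNA per cell cannot be told apart. By class, 7 of 17 other integrins, 3 of 7 leukocyte integrins and 2 of 10 laminins were lower.

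**Figure D1:**
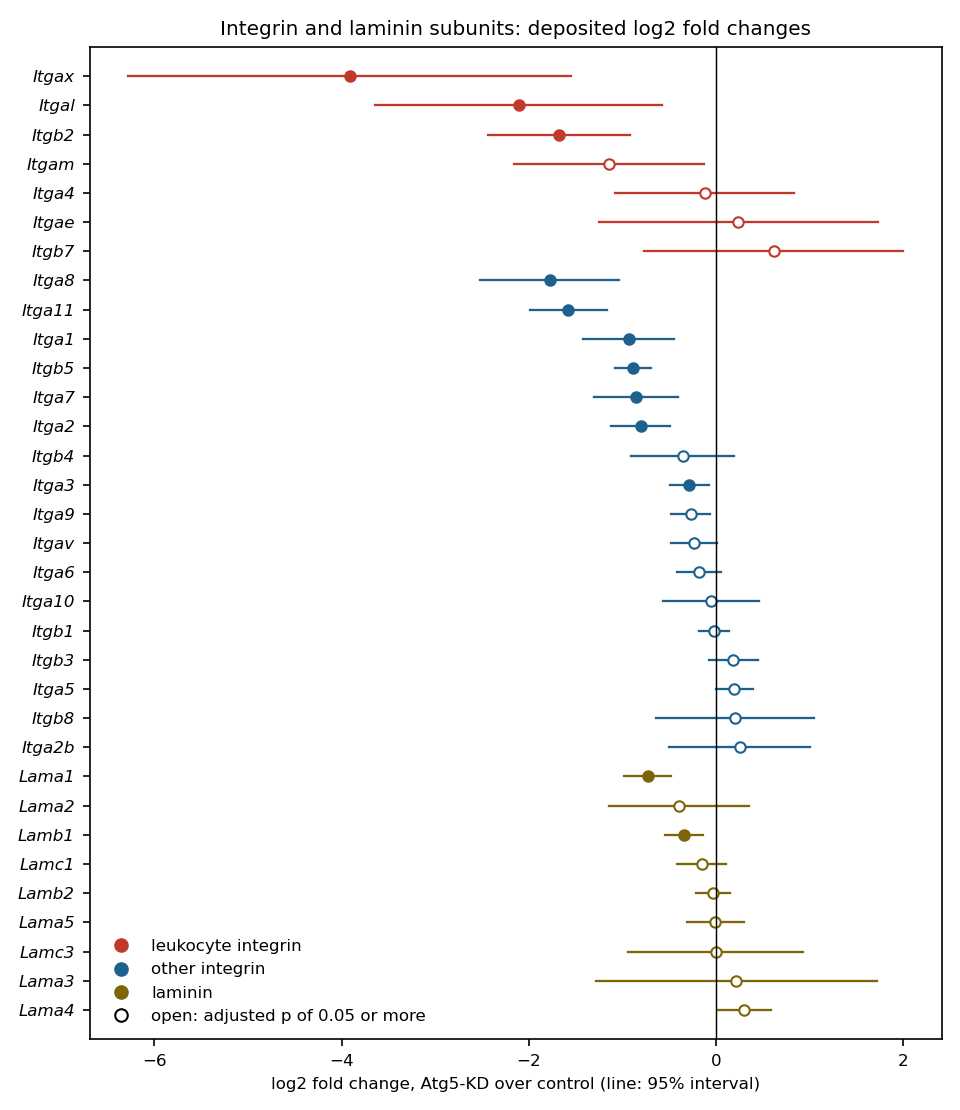
Log2 fold change (Atg5-KD over control) of 33 of the 34 subunits, with lines for the 95% interval from the deposited standard error. Filled points passed an adjusted p of 0.05; the 12 filled points all lie below 0, from -0.29 for Itga3 to -3.92 for Itgax, and the wide lines belong to subunits of low level.

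A change of scaling moves every log2 fold change given here. The ribosomal RNA row Rn45s had a log2 fold change of 4.24 per the authors' deposited table, and setting the estimated total of all rows equal in both groups moved every log2 fold change by -0.30, so that 38.7% of all tested genes were called lower and 3.6% higher. With Rn45s left out the move was -0.03. Each of the 12 lower subunits stayed lower and called under both totals. After removal of the trend of fold change on GC content and exon length, Itga3 and Itgal lost the call, Itgav was called lower and Itga5 was called higher. The subunits whose sign turned under the first were not called in either case.

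Among beta chains, Itgb5 fell and its more widely pairing relative Itgb1 did not pass the test. Itgb5, which pairs with the alpha v chain to bind vitronectin and other proteins with an RGD motif, had an estimated 10995 normalized counts in control libraries and 5934 in those labelled Atg5-KD. Control libraries were thus 1.85-fold higher, with a 95% interval from 1.62 to 2.11. The authors' deposited table gave a log2 fold change of -0.89 ± 0.10 (SE; Wald adjusted p = 7.41e-18), the smallest adjusted p of the 34 subunits. Itgb5 (ENSMUSG00000022817.15) lies on chromosome 16 from 33829665 to 33949338 of GRCm38, on the plus strand. Itgb1, the shared partner of the collagen- and laminin-binding alpha chains, was estimated at 9662 normalized counts in control libraries and 9488 in those labelled Atg5-KD. It stood at -0.03 ± 0.08 (SE) per the authors' deposited table, with a 95% interval of the log2 fold change from -0.18 to 0.13. With the total of all rows made equal, Itgb1 was called lower at -0.33 (adjusted p = 0.000317).

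Per kilobase of exon, where levels of different genes can be set side by side, Itgb5 and Itgb1 stood far above the other beta chains, at percentiles 98.8 and 98.8 of all tested genes. Itgb5 was estimated at 3095 normalized counts per kb in control and Itgb1 at 2368, whereas among libraries labelled Atg5-KD the order was the other way round, with 1670 for Itgb5 and 2325 for Itgb1. As a share of the summed beta chain level per kb, Itgb5 went from 53.8% in control to 38.7% and Itgb1 from 41.1% to 53.9%. A share also moves when another chain of the sum changes, and Itgb1 itself did not pass the test. With the other order of groups, control would have 1670 normalized counts per kb of Itgb5 and 2325 of Itgb1, and shares of 38.7% and 53.9%. Itgb3, the beta chain of the classical vitronectin receptor, was next at 282 normalized counts per kb over both groups. It did not pass the test at 0.18 ± 0.13 (SE) per the authors' deposited table, and its sign turned to -0.12 with the total of all rows made equal. Itgb4, which pairs with alpha6 in hemidesmosomes, stood at -0.36 ± 0.28 (SE) per the authors' deposited table. Itgb8, which with alpha v activates latent TGF-beta, stood at 0.20 ± 0.43 (SE) per the authors' deposited table, where its base mean was 27.2, and turned to -0.10 with that equal total and to -0.08 with the GC and length trend removed.

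**Figure D2:**
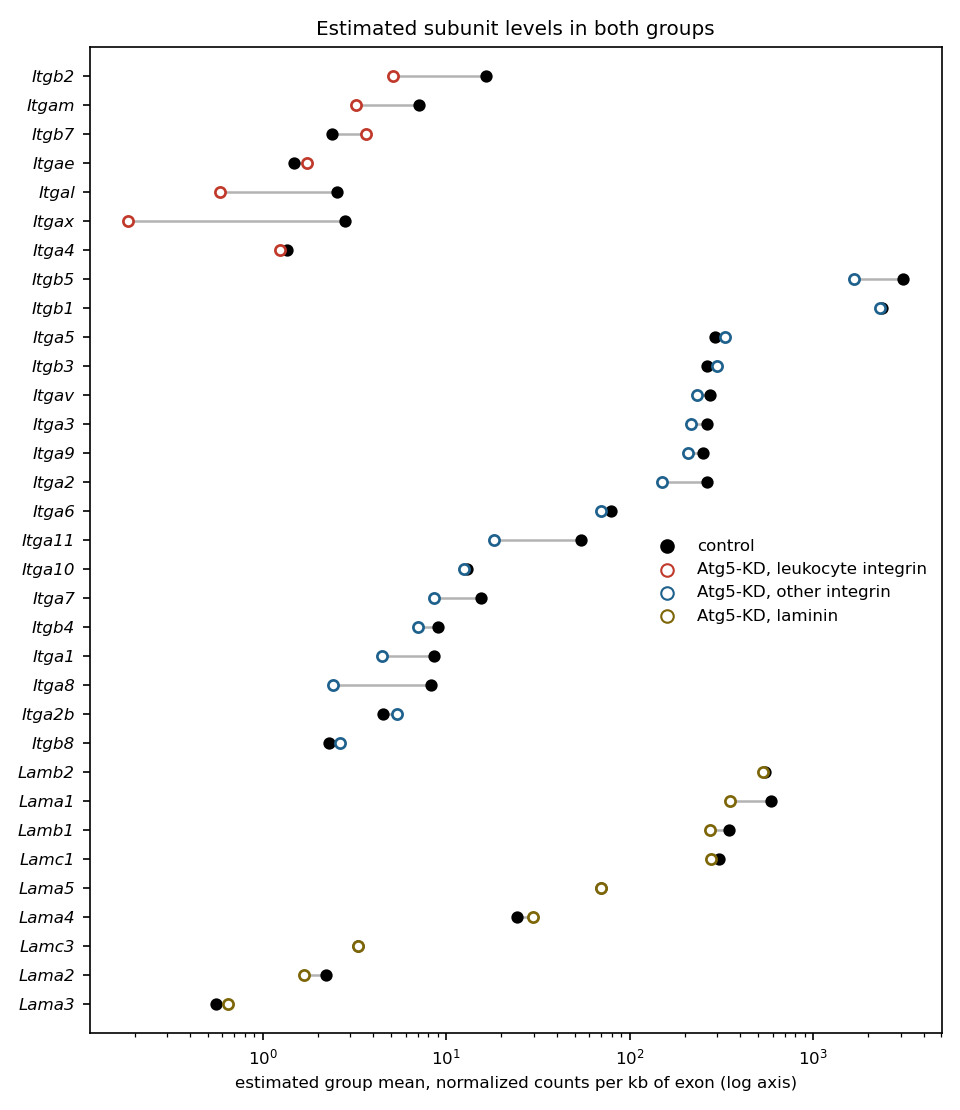
Estimated group mean of 33 of the 34 subunits in normalized counts per kilobase of exon, on a log axis, with filled points for control and open points for Atg5-KD. Itgb5 and Itgb1 lie above 1000 in both groups, and leukocyte integrins lie under 20 in both.

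The 250 bases before the annotated starts of both abundant beta genes are shown because the first fell and the second did not pass the test at a like level. They come from RefSeq on GRCm38.p6 and read 5′ to 3′ on the gene's strand. Of the 34 subunits, 21 had an entry. Capitals mark 3 short motifs searched on both strands, GAGGAA (core of PU.1 sites), TGANTCA (AP-1) and CATTCC (TEAD). The Itgb5 window, chr16:33829415-33829664 on the plus strand, held 0 of them, and the Itgb1 window, chr8:128685404-128685653 on the plus strand, held GAGGAA overlapping the reverse complement of CATTCC next to the start.
Itgb5: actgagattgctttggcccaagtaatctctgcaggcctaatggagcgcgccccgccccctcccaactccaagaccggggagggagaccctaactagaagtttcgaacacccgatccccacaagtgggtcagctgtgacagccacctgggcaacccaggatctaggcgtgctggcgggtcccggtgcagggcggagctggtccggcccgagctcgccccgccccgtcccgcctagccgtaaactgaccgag
Itgb1: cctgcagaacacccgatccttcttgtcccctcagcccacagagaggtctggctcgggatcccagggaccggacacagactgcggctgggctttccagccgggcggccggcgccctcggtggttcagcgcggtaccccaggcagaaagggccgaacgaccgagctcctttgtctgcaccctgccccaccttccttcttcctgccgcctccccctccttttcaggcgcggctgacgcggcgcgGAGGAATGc
Over 11465 promoters of tested genes, 22.0% held GAGGAA, 4.50% TGANTCA and 10.7% CATTCC. Of the 8 lower subunits with an entry, 2 held GAGGAA, 1 TGANTCA and 0 CATTCC, and of the 13 that were not called, 8, 0 and 2 did.

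Alpha chains that bind collagen fell in 3 of 4 cases. Itga11, a receptor for fibrillar collagen known from fibroblasts, had an estimated 279 normalized counts in control libraries and 93.3 in those labelled Atg5-KD. The authors' deposited table gave a log2 fold change of -1.58 ± 0.21 (SE; Wald adjusted p = 3.7e-12), so that control was 2.99-fold higher (95% interval 2.25 to 3.98). Itga2, the collagen receptor chain best known from platelets and epithelia, had the highest level of the 4, with an estimated 1871 normalized counts in control libraries and 1069 in those labelled Atg5-KD. It stood at -0.81 ± 0.16 (SE) per the authors' deposited table (Wald adjusted p = 8.49e-06). Itga1, which prefers basement membrane collagen and is known from smooth muscle and stroma, was estimated at 159 and 83.3 normalized counts and stood at -0.94 ± 0.25 (SE) per the authors' deposited table (Wald adjusted p = 0.00155). Itga10, a chain of cartilage, was estimated at 67.0 and 64.4 normalized counts and did not pass the test at -0.06 ± 0.26 (SE) per the authors' deposited table, with a 95% interval from -0.57 to 0.46. Its sign turned to 0.04 with the GC and length trend removed. A predicted gene, Gm42957, overlaps 33.5% of the Itga10 exon bases on the same strand in GENCODE M21, and whether reads there were counted was not stated in the labels.
Itga11, with the lowest adjusted p of the alpha chains, starts at 62677826 on chromosome 9 of GRCm38, and the window before its RefSeq start, chr9:62677605-62677854 on the plus strand, held GAGGAA as its reverse complement, in capitals.
Itga11: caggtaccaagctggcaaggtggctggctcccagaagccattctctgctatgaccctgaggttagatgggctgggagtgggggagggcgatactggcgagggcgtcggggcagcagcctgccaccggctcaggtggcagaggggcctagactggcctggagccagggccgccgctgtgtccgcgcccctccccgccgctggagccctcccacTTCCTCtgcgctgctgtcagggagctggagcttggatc

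Laminin-binding alpha chains were lower in 2 of 3 cases. Itga7, the laminin receptor of muscle, was estimated at 125 normalized counts in control libraries and 69.2 in those labelled Atg5-KD, a log2 fold change of -0.85 ± 0.23 (SE) per the authors' deposited table (Wald adjusted p = 0.00204). Itga3, a receptor for the laminins that hold alpha3 or alpha5 chains, was estimated at 1507 and 1236 normalized counts. Its log2 fold change of -0.29 ± 0.11 (SE) per the authors' deposited table was called (Wald adjusted p = 0.0408), but with the trend in GC content and transcript length removed it was -0.09 (adjusted p = 0.672). Itga6, the most widely used laminin receptor chain, was estimated at 713 and 627 normalized counts and did not pass the test at -0.19 ± 0.12 (SE) per the authors' deposited table.

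RGD-binding alpha chains and Itga9 gave 1 call among 5. Itga8, a receptor for nephronectin known from smooth muscle and mesenchyme, was estimated at 61.1 normalized counts in control libraries and 17.8 in those labelled Atg5-KD. The authors' deposited table gave a log2 fold change of -1.78 ± 0.38 (SE), so that control was 3.43-fold higher (95% interval 2.05 to 5.74; Wald adjusted p = 4.83e-05). Itgav, the partner of Itgb5, Itgb3 and Itgb8, was estimated at 2926 and 2483 normalized counts and stood at -0.24 ± 0.13 (SE) per the authors' deposited table (Wald adjusted p = 0.182). With the GC and length trend removed Itgav was called lower at -0.44 (adjusted p = 0.0062), and with equal totals of all rows at -0.54 (adjusted p = 0.000133). Itga5, the fibronectin receptor chain, was estimated at 1431 and 1636 normalized counts and stood at 0.19 ± 0.10 (SE) per the authors' deposited table (Wald adjusted p = 0.174). Removing the GC and length trend gave 0.39 for Itga5, then called higher (adjusted p = 0.00204), while equal totals of all rows gave -0.11.

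Itga2b, the alpha chain of platelets, was estimated at 24.6 and 29.3 normalized counts and stood at 0.25 ± 0.38 (SE) per the authors' deposited table, turning to -0.05 with equal totals of all rows. Itga9, which binds tenascin-C and other ligands, lay just outside the threshold at -0.27 ± 0.11 (SE) per the authors' deposited table (Wald adjusted p = 0.0519). It was called lower with Rn45s left out of the total (adjusted p = 0.0255) and when genes under a base mean of 10 were not tested (adjusted p = 0.0476). Per kilobase of exon, Itga5 led the alpha chains with 18.9% of their summed level in control and 26.2% in those labelled Atg5-KD. In control the lead was narrow, with Itgav at 17.7%, Itga3 at 17.2% and Itga9 at 16.3%. A share also moves when other chains of the sum change, and Itga5 itself did not pass the test. Itga2 went from 17.1% to 11.9%, and Itga11 from 3.53% to 1.44%.

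**Figure D3:**
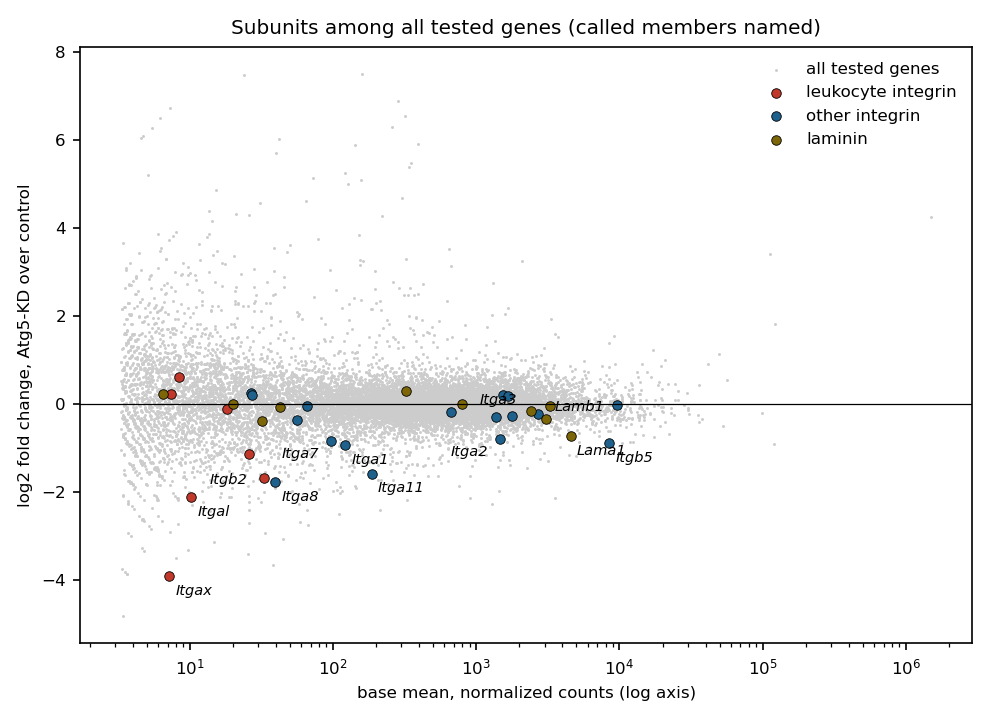
Log2 fold change (Atg5-KD over control) against base mean in normalized counts on a log axis, with all tested genes in grey and subunits in colour by class. The 12 subunits named by symbol were called lower; they span base means from 7.15 (Itgax) to 8465 (Itgb5).

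Among laminins, Lama1 and Lamb1 fell and the other chains described here did not pass the test. Lama1, the alpha chain of early embryonic basement membranes, was the leading alpha chain, with an estimated 5685 normalized counts in control libraries and 3425 in those labelled Atg5-KD. The authors' deposited table gave a log2 fold change of -0.73 ± 0.13 (SE; Wald adjusted p = 4.09e-07), so that control was 1.66-fold higher (95% interval 1.39 to 1.98). Lama1 (ENSMUSG00000032796.8) lies on chromosome 17 from 67697259 to 67822647 of GRCm38, on the plus strand. Lamb1 was estimated at 3442 and 2715 normalized counts, a log2 fold change of -0.34 ± 0.10 (SE) per the authors' deposited table (Wald adjusted p = 0.00701). Lamc1, the gamma chain that most laminins share, was estimated at 2542 and 2282 normalized counts and did not pass the test at -0.16 ± 0.13 (SE) per the authors' deposited table. Its 95% interval ran from -0.42 to 0.10, and with equal totals of all rows it was called lower at -0.45 (adjusted p = 0.00246). Lamb2, which can take the place of Lamb1 in the trimer, was estimated at 3304 and 3221 normalized counts and stood at -0.04 ± 0.09 (SE) per the authors' deposited table. That sign turned to 0.17 with the GC and length trend removed, and Lamb2 was called lower at -0.34 with equal totals of all rows (adjusted p = 0.00134).

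Lama4, a chain of vessel and muscle basement membranes, was the only one of the 34 with an unadjusted p under 0.05 and a value above 0. It was estimated at 292 and 359 normalized counts and stood at 0.30 ± 0.14 (SE) per the authors' deposited table (Wald adjusted p = 0.129), and equal totals of all rows took the value to -8.7e-05. Lama5, the alpha chain of most adult epithelial and vascular basement membranes, was estimated at 796 and 791 normalized counts. It stood at -0.0092 ± 0.16 (SE) per the authors' deposited table, with a 95% interval from -0.32 to 0.30, and at 0.15 with the GC and length trend removed. Lama2, the chain of muscle basement membranes, at -0.40 ± 0.38 (SE), and Lama3, the alpha chain of the laminin of hemidesmosomes, at 0.22 ± 0.77 (SE) per the authors' deposited table had base means under 50 and intervals that include 0. Lamc3, another gamma chain, was estimated at 20.1 normalized counts in each group, and its log2 fold change of -0.0039 ± 0.48 (SE) became 0.19 with the GC and length trend removed. As a share of the summed laminin alpha chain level per kb, Lama1 went from 85.8% in control to 77.7% in those labelled Atg5-KD, Lama5 from 10.2% to 15.3% and Lama4 from 3.54% to 6.53%. Such shares move when another chain of the sum changes. Lama5 itself was estimated at 69.9 normalized counts per kb in control and 69.4 in libraries labelled Atg5-KD. With the other order of groups, control would have 77.7% Lama1, 15.3% Lama5 and 6.53% Lama4. Among beta chains Lamb2 made up 61.0% and 65.9%.

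Integrins of leukocytes were present at low levels and 3 of 7 were lower. Itgb2, the shared beta chain of the leukocyte integrins, was estimated at 50.2 normalized counts in control libraries and 15.7 in those labelled Atg5-KD. The authors' deposited table gave a log2 fold change of -1.68 ± 0.39 (SE), so that control was 3.20-fold higher (95% interval 1.89 to 5.41; Wald adjusted p = 0.000239). Itgax, the CD11c chain of dendritic cells and some macrophages, was estimated at 13.4 and 0.889 normalized counts. The second value lies under the minimum of 3.3, so Itgax passed it through its control libraries. It amounts to an estimated 2.67 normalized counts over the 3 libraries labelled Atg5-KD together, and control was 15.1-fold higher with a 95% interval from 2.94 to 77.6 (Wald adjusted p = 0.00865 per the authors' deposited table). Itgal, the chain of LFA-1 on lymphocytes and myeloid cells, was estimated at 16.6 and 3.85 normalized counts. It stood at -2.11 ± 0.78 (SE) per the authors' deposited table (Wald adjusted p = 0.0366), and the call ended with the GC and length trend removed (-2.05, adjusted p = 0.0603).

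Itgam, the CD11b chain of myeloid cells, was estimated at 35.8 and 16.2 normalized counts and did not pass the test at -1.14 ± 0.52 (SE) per the authors' deposited table (Wald adjusted p = 0.104). A predicted gene, Gm49368, overlaps 68.7% of the Itgam exon bases on the same strand in GENCODE M21, and whether reads there were counted was not stated in the labels. Itgam was called lower at -1.44 with equal totals of all rows (adjusted p = 0.0159). Itgb7 and Itgae, which form the receptor by which lymphocytes hold to epithelium, stood at 0.62 ± 0.71 (SE) and 0.23 ± 0.76 (SE) per the authors' deposited table, with base means of 8.37 and 7.35. Equal totals of all rows took Itgae to -0.06. Itga4, found on lymphocytes, monocytes and some other cells, was estimated at 18.9 and 17.4 normalized counts and stood at -0.12 ± 0.49 (SE) per the authors' deposited table. Itgal, Itgam and Itgax lie on chromosome 7 of GRCm38, at 127296260 to 127335138, 128062640 to 128118491 and 128129547 to 128150657.
Windows of the latter pair of neighbours are shown since they hold different motifs. The Itgam window, chr7:128062390-128062639 on the plus strand, held GAGGAA on both strands, and the Itgax window, chr7:128129300-128129549 on the plus strand, held TGANTCA.
Itgam: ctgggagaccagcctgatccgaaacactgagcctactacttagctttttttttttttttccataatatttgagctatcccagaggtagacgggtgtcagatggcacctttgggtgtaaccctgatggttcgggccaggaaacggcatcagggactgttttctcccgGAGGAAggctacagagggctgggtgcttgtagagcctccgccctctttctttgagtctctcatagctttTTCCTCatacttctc
Itgax: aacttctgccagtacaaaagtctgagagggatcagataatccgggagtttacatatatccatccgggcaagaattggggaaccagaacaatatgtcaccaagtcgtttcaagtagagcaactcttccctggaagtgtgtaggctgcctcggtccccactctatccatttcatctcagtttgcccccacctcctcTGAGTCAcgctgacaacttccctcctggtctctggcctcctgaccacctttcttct

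Most tested markers of leukocytes were lower in the same libraries as Itgb2, Itgax and Itgal. Of 25 listed markers 22 were tested, and 15 were lower (68.2%) and 0 higher, beside 10.5% and 10.4% of all tested genes. Their median log2 fold change was -1.74 per the authors' deposited table, and 17 were lower and 0 higher at an unadjusted Wald p under 0.05. The summed level of the 25 listed leukocyte markers was an estimated 2508 normalized counts in control libraries and 673 in those labelled Atg5-KD. None of the 25 had a base mean of 0. Lyz2, named after its values were seen, was the largest part of that sum, with an estimated 1476 and 335 normalized counts. The summed level of the 7 leukocyte integrins was an estimated 148 and 72.1 normalized counts. Laptm5, made by blood cells and sited in lysosomes, stood at -2.75 ± 0.34 (SE), and C1qc and C1qa, complement subunits of macrophages, at -3.66 ± 0.51 (SE) and -3.06 ± 0.45 (SE) per the authors' deposited table. The part of the markers in the fall of these 3 integrins was not tested. Of ligands on other cells for these integrins, 7 were tested, 1 was higher and 1 lower. Jam2, a ligand of the alpha4 beta1 pair, stood at 0.60 ± 0.11 (SE) and Jam3, which binds the Itgam and Itgb2 pair, at -0.46 ± 0.12 (SE) per the authors' deposited table. The median of these ligands was 0.09 and turned to -0.21 with equal totals of all rows.

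Markers of smooth muscle were lower in the same libraries as the 7 other integrins that fell, while 10 of those 17 integrins did not pass the test. Of 10 tested smooth muscle and pericyte markers 8 were lower (80%) and 1, Notch3, higher (10%), beside 10.5% and 10.4% of all tested genes. Their median log2 fold change was -1.01 per the authors' deposited table. Their summed level was an estimated 12726 normalized counts in control libraries and 5903 in those labelled Atg5-KD. Actg2 stood at -1.39 ± 0.14 (SE), Tagln at -1.26 ± 0.13 (SE) and Acta2 at -1.17 ± 0.12 (SE) per the authors' deposited table. The 7 integrins stood at -1.78 for Itga8, -1.58 for Itga11, -0.94 for Itga1, -0.89 for Itgb5, -0.85 for Itga7, -0.81 for Itga2 and -0.29 for Itga3. Of 10 tested theca and stroma markers 7 were lower (70%) and 1, Aldh1a1, higher (10%) per the authors' deposited table, beside the same shares of all tested genes. The summed level of the 12 listed was an estimated 24625 normalized counts in control libraries and 26584 in those labelled Atg5-KD, the opposite direction to the median log2 fold change of -0.83 over the 10 tested. Aldh1a1, a retinal dehydrogenase, made up most of that sum, with an estimated 15823 and 21488 normalized counts. With equal totals of all rows, where 38.7% of all tested genes were lower, 9 were lower and Aldh1a1 was not called higher. The theca markers Cyp17a1 and Insl3, named after their values were seen, lay under the level minimum. The part of these cells in the falls of integrins and laminins was not tested.

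Endothelial markers gave 0 calls of 9, platelet markers 0 of 4, surface epithelium markers 0 of 8 and oocyte markers 0 of 4 per the authors' deposited table (Wald test; at an unadjusted p under 0.05, 1, 1, 1 and 0 were lower and 0, 1, 0 and 0 higher). Their most abundant members were Egfl7 at 0.28 and Eng at -0.54, Gp1ba at 0.04 and Pf4 at -1.54, Krt8 at 0.02 and Upk3b at -0.33, and Gdf9 at 0.26 and Zp2 at 0.17 per the authors' deposited table. Among all tested genes 10.4% were called higher and 10.5% lower, and under a base mean of 50 the shares were 5.0% and 3.56%. Thus 0 calls in lists of 4 to 9 genes say little by themselves. The 8 surface epithelium values ran only from -0.33 to 0.06, at base means from 26.6 to 816 per the authors' deposited table. Granulosa and cumulus markers had 3 higher and 5 lower of 17 (17.6% and 29.4%). Among genes with a base mean of at least 1000 the shares were 18.4% and 16.8%. The higher ones were the matrix proteoglycan Vcan at 1.41, the nuclear receptor Nr5a2 at 0.62 and Inhba at 0.45 per the authors' deposited table. The lower ones were Serpine2 at -0.89, Inhbb at -1.14, Hsd17b1 at -0.79, Foxl2 at -0.49 and Gja1 at -0.33 per the authors' deposited table. With equal totals of all rows, where 38.7% of all tested genes were lower, endothelial markers had 1, platelet markers 1, surface epithelium markers 5 and granulosa markers 7 called lower, Inhba was no longer called, and the median of the oocyte list turned from 0.25 to -0.05.

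**Figure D4:**
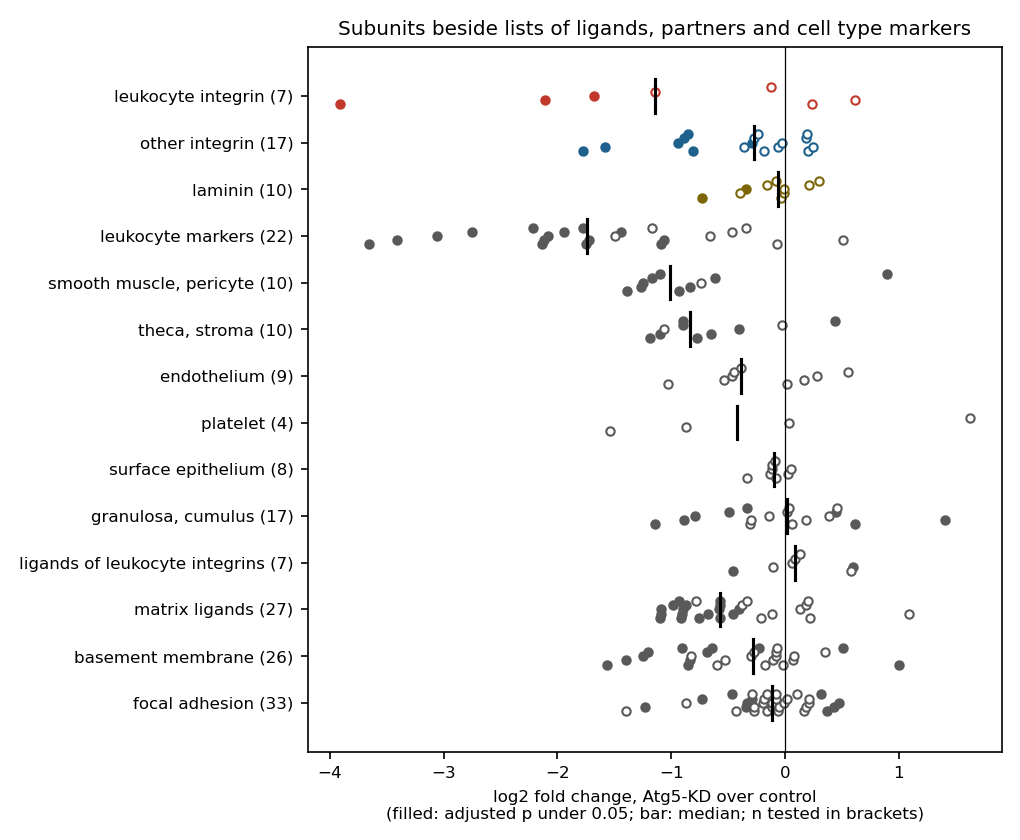
Log2 fold changes (Atg5-KD over control) of the subunits by class and of tested genes in lists of ligands, partners and cell type markers, with a bar at each median and filled points for an adjusted p under 0.05. Leukocyte markers have the lowest median, -1.74, and leukocyte integrins follow at -1.14.

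Matrix ligands of integrins fell in the same libraries. Of 27 tested, 17 were lower (63.0%) and 0 higher per the authors' deposited table, beside 10.5% and 10.4% of all tested genes. The median log2 fold change was -0.57, and at an unadjusted p under 0.05 the counts were 19 and 1. Col1a1 and Col1a2, the chains of type I collagen that Itga11 and Itga2 bind, stood at -1.10 ± 0.14 (SE) and -0.89 ± 0.13 (SE), and Tnc, the tenascin that Itga9 binds, at -0.98 ± 0.14 (SE) per the authors' deposited table. Thbs1, a matricellular glycoprotein, and Fn1, fibronectin, stood at -0.91 and -0.87 per the authors' deposited table, with base means of 119202 and 12426, and were named after their values were seen. Col1a1, Col1a2 and Col3a1 stand in this list and in that of theca and stroma. The vitronectin gene Vtn, a ligand of the Itgav and Itgb5 pair, was listed at 0.

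Genes of the basement membrane and of proteins linked to it were lower in 10 of 26 cases (38.5%) and higher in 2 (7.69%). Among all tested genes the shares were 10.5% and 10.4%. Nid2, a nidogen that links laminin to type IV collagen, stood at -1.25 ± 0.16 (SE), Col15a1, a collagen of the basement membrane zone, at -1.20 ± 0.13 (SE), and Fbln1, fibulin-1, at -0.83 ± 0.09 (SE) per the authors' deposited table. The higher ones were Agrn, a proteoglycan that ties laminin to dystroglycan, at 1.01 ± 0.14 (SE), and Utrn at 0.51 ± 0.16 (SE) per the authors' deposited table. Utrn encodes utrophin, which lies inside the cell and not in the basement membrane. With equal totals of all rows, where 38.7% of all tested genes were lower, 20 were lower and Agrn alone of the 26 was higher. Receptors of laminin outside the integrins fell, Dag1, dystroglycan, to -0.68 and Bcam to -0.64 per the authors' deposited table. The chains of basement membrane collagen Col4a1 and Col4a2 did not pass the test at -0.08 and -0.18, and perlecan, Hspg2, stood at 0.08 per the authors' deposited table. Dag1, Bcam, Col4a1, Col4a2 and Hspg2 were named after their values were seen.

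Inside the cell, focal adhesion genes passed the test in both directions. Of 33 tested, 4 were higher (12.1%) and 6 lower (18.2%) per the authors' deposited table, with a median log2 fold change of -0.12. The shares of all tested genes were 10.4% and 10.5%, and those of genes with a base mean of at least 1000 were 18.4% and 16.8%, so these counts are near the background. With equal totals of all rows 0 were higher and 22 lower, beside 3.6% and 38.7% of all tested genes. With the GC and length trend removed 3 were higher and 3 lower, beside 6.61% and 7.33% of all tested genes. Lims1 (PINCH1), an adaptor of the integrin-linked kinase, stood at 0.43 ± 0.09 (SE) and its relative Lims2 at -1.23 ± 0.31 (SE) per the authors' deposited table. Tns3, a tensin, at 0.48 and Bcar1, the p130Cas scaffold, at 0.37 were higher, and Dab2, an endocytic adaptor, at -0.73 and Kank1, which binds talin, at -0.47 were lower per the authors' deposited table. The talin gene Tln1, the kindlin gene Fermt2 and vinculin, Vcl, named after their values were seen, did not pass the test at 0.11, -0.16 and -0.01 per the authors' deposited table. The kindlin of blood cells, Fermt3, likewise named, stood at -0.87 (Wald adjusted p = 0.0962) per the authors' deposited table.

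**Figure D5:**
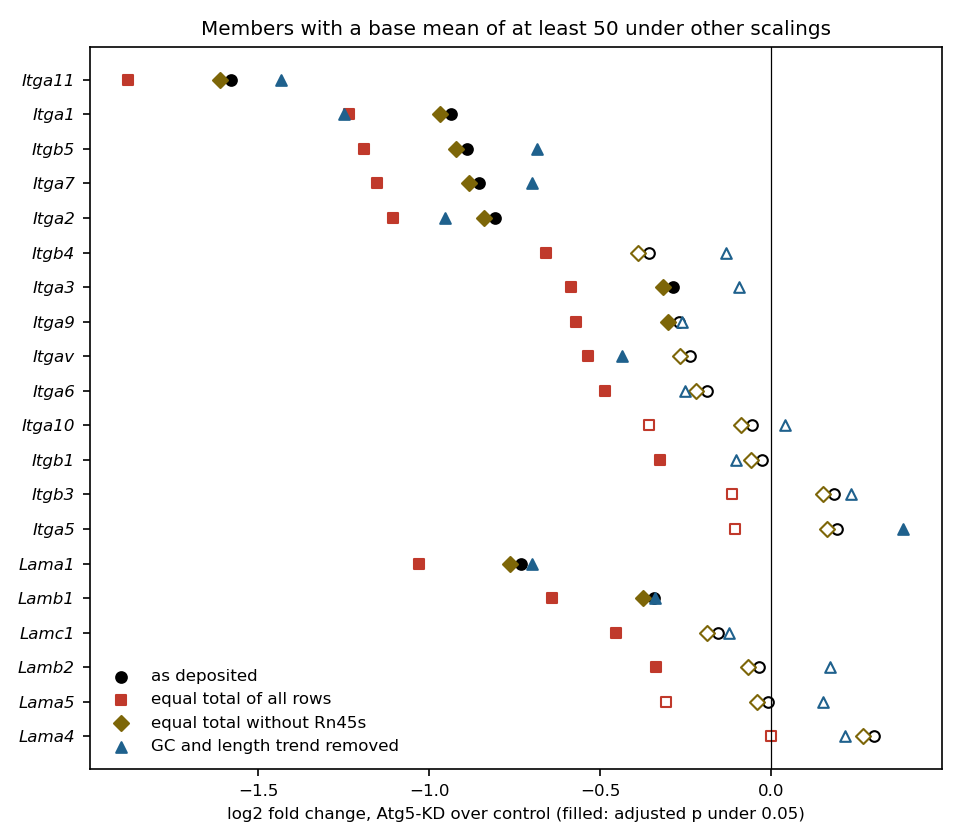
Log2 fold change (Atg5-KD over control) of the 20 subunits with a base mean of at least 50 as deposited, with equal totals of all rows, with equal totals without Rn45s, and after removal of the GC and length trend. Filled points passed an adjusted p of 0.05; Itgb5 moves between -1.19 and -0.68 and stays called, while Itga5 moves between -0.11 and 0.39.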

How the data were processed

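RNA of 6 libraries was sequenced, 3 labelled control and 3 labelled Atg5-KD. Tools listed in the submitters' processing notes, without their roles, are DESeq2 1.30.1, StringTie 2.1.4, featureCounts 1.6.2 and STAR, and the listed build is mm10. Only the authors' table of the comparison was used, whose columns, per the file headers, are those of DESeq2 output. The deposited base mean is a signal value, the mean of read counts divided by size factors. Log2 fold changes and standard errors, both in log2 units, were deposited by the authors, as was the Wald statistic, a score, and the p-values and adjusted p-values were deposited by the authors. Of 24982 rows, 14835 have an adjusted p. Recomputing the statistic, the p and its Benjamini-Hochberg adjustment found 0 differing rows at a tolerance of 1e-06. Library totals and values per library were not analysed here, so a test of read counts could not be run and the deposited test was used.

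Group means were estimated from base mean and fold change with equal group sizes, and 95% intervals from the standard error. Exon lengths, GC content and coordinates come from GENCODE M21 on GRCm38, the assembly of mm10, and matched 34 of 34 subunits. Levels per kb divide by the union of annotated exons, which understates genes with long rarely used exons. The trend in GC content and length was removed by lowess (fraction 0.3, statsmodels 0.14.6), and tests were repeated with shifted fold changes. The adjusted test and the trend removal were first run on simulated fold changes with a planted GC trend. In that run the shift was added and removed in the same step, so the run could not check the shifted tests. The members, classes and lists were chosen with earlier results of these data known. Text names every member except 1 that is not reported here, the 3 genes of smallest adjusted p in each direction of a list, the 2 of highest base mean in a list without calls, and others stated to be outside this rule.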

Additional observations from a re-analysis of the deposited data

How the results depend on the processing

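No paired analysis was possible because the table used here holds no values per library, and leaving out each library was not run for the same reason. The counts of lower subunits (12 in all, 7 other integrins, 3 leukocyte integrins, 2 laminins) became 20, 12, 4 and 4 with equal totals of all rows, under which 38.7% of all tested genes were lower. Against a minimum absolute log2 fold change of 0.3 they were 7 in all, 4 other integrins and 1 laminin, and with Bonferroni adjustment 5, 4, 0 leukocyte integrins and 1 laminin. With genes under a base mean of 50 left out, 0 leukocyte integrins remained to be called. With the GC and length trend removed 1 subunit, the integrin Itga5, was called higher. The other settings, which were thresholds of 0.01 and 0.1, a base mean of at least 10, the total without Rn45s, centring on the median and counting Itga4 with the other integrins, kept each count within 1.5 times.

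Signs turned for subunits that were not called. With equal totals of all rows Lama4 was at -8.7e-05, Lama3 at -0.084, Itgae at -0.064, Itga5 at -0.11, Itga2b at -0.049, Itgb3 at -0.12 and Itgb8 at -0.10. With the GC and length trend removed Lama5 was at 0.15, Lamb2 at 0.17, Lamc3 at 0.19, Itga10 at 0.040 and Itgb8 at -0.078, and with the median of genes centred Lamc3 was at 0.0035. Low counts limit the leukocyte integrins, whose base means ran from 7.15 to 32.9.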
